A study of Homo sapiens with 10 samples.

Results

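The transcripts of the proteasome subunits were followed in BEAS2B cells after transfection of microRNAs (miRNAs) or a miRNA inhibitor. Members were the gene symbols PSMA, PSMB, PSMC, PSMD or PSME followed only by a number. There were 43 such symbols among the 52402 listed, and 37 of them were among the 14884 genes with enough counts to be tested. BEAS2B cells are a line of human bronchial epithelium of non-tumour origin, immortalized with a viral oncogene. The series belongs to work on exosomal miRNAs in small cell lung cancer. The 5 groups received miRcontrol (a scrambled miRNA), a mimic of miR-3124-5p, a mimic of miR-200b-3p, an inhibitor of miR-92b (each at 50 nM), or the mimics and the inhibitor together (the 3-miRNAs mixture). All 5 groups were transfected with Lipofectamine 2000 and harvested after 48 h, and each had 2 libraries of messenger RNA. A mimic is a synthetic double-stranded copy of a mature miRNA, and an inhibitor is an antisense strand that occupies it. The labels do not say which strand of miR-92b the inhibitor covers, and the amount of each agent in the mixture is not given in the sources used here. Nothing says that the libraries of a group came from separate transfections, so the p-values measure only the spread between these libraries, which may be technical.

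The proteasome is the protease that degrades most ubiquitin-tagged proteins in the cytosol and nucleus. Its barrel-shaped core is built of stacked rings: outer rings of alpha subunits (PSMA genes) that gate the entrance, and inner rings of beta subunits (PSMB genes) that hold the active sites. The regulatory particle binds the ends of the core, where its ATPases (PSMC genes) unfold the substrate and its other subunits (most PSMD genes) bind and cut off ubiquitin. PSMD5, PSMD9 and PSMD10 are chaperones of the assembly of the regulatory particle and are not parts of the finished complex. The activators PSME1 and PSME2 (together PA28), PSME3 (PA28 gamma) and PSME4 (PA200) can open the core in its place. In the immunoproteasome, which interferon induces, PSMB8, PSMB9 and PSMB10 take the places of the catalytic subunits PSMB5, PSMB6 and PSMB7 and shift the cleavage towards peptides that fit antigen presentation.

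The libraries held between 13587666 and 18503890 counts, of which 85358 to 121283 fell on the subunits. Levels are given as normalized CPM, which are counts scaled to library size and corrected by the RLE method with factors that ranged from 0.985 to 1.016. The epithelial keratins KRT7, KRT8 and KRT18 had at least 10684 counts in every library, while KRT5, a keratin of airway basal cells, had at most 9. The epithelial adhesion genes CDH1 and EPCAM had 1 to 157 and 2 to 175 counts, and the mesenchymal gene VIM had at least 12112. The leukocyte genes PTPRC and CD3E had at most 2 counts, the endothelial gene PECAM1 had at most 4, and CD14 had 5 to 219. KRT19, a further keratin of simple epithelia, had 9 to 262. The other mesenchymal genes read, FN1 and CDH2, had at least 19313 and 2929 counts. Of the epithelial genes, KRT7, KRT8 and KRT18 were thus high, while KRT5, KRT19, CDH1 and EPCAM were low. The label of normal bronchial epithelium was therefore met only in part, and all mesenchymal genes read were high.

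A total of 6 subunits could not be tested. PSMA8, a testis form of an alpha subunit, had 0 counts in every library, and PSMB11, the thymus-specific catalytic subunit, had 0 to 3. PSMB3, PSMC4, PSMB8 and PSMB9 were listed at 0 in every library. Each of these 4 symbols stands on several rows of the files, PSMB3 and PSMC4 on 2 rows and PSMB8 and PSMB9 on 8 rows. Of the protein-coding symbols that stand on more than 1 row, 446 of 971 (45.9%) were at 0 in every library, against 2254 of 17926 (12.6%) of those on 1 row. PSMB3, a structural beta subunit, and PSMC4, a regulatory ATPase, are essential in dividing cells. The zeros of repeated symbols were therefore not read as a lack of the transcript, and no fold change was computed for them. TAP1 and TAP2, neighbours of PSMB8 and PSMB9 that carry peptides into the endoplasmic reticulum, stand on 8 rows as well and were also listed at 0. The comparison of the immunoproteasome with its constitutive partners thus rests on PSMB10 alone.

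To compare the subunits with each other, CPM were divided by the length of all annotated exons of the gene in GENCODE release 29. In miRcontrol the median subunit had 63.7 CPM per kb, and 25 of 37 lay within 2-fold of it. PSMD2, the large scaffold subunit that binds ubiquitin-like domains, was highest with 276 ± 0.139 CPM per kb (SD, n = 2). PSMA7, an alpha ring subunit, followed with 208 ± 6.47, and PSMB4, a structural beta subunit, with 172 ± 7.62 CPM per kb. PSMB10 was lowest with 10.5 ± 0.785 CPM per kb, below the assembly chaperone PSMD9 with 17.0 ± 0.536. By class, the median was 76.8 CPM per kb in the alpha ring, 100 in the constitutive beta ring, 49.7 in the ATPases, 66.8 in the other regulatory subunits, 24.1 in the chaperones and 43.5 in the activators. The 3 chaperones all lay below the lowest member of the non-ATPase subunits (PSMD11, 45.7 CPM per kb). Members of other classes lay below that value too, among them PSMA5 (22.1), PSME4 (24.9) and PSMC1 (29.3 CPM per kb), so a low level was not particular to the chaperones. Within the alpha ring, whose subunits are present in equal numbers in the particle, values ran from 22.1 for PSMA5 to 208 for PSMA7. All annotated exons enter the length, so a gene with long alternative ends, such as PSMA5 with 4536 exon bases, is placed lower than its main transcript alone would place it.

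**Figure D1:**
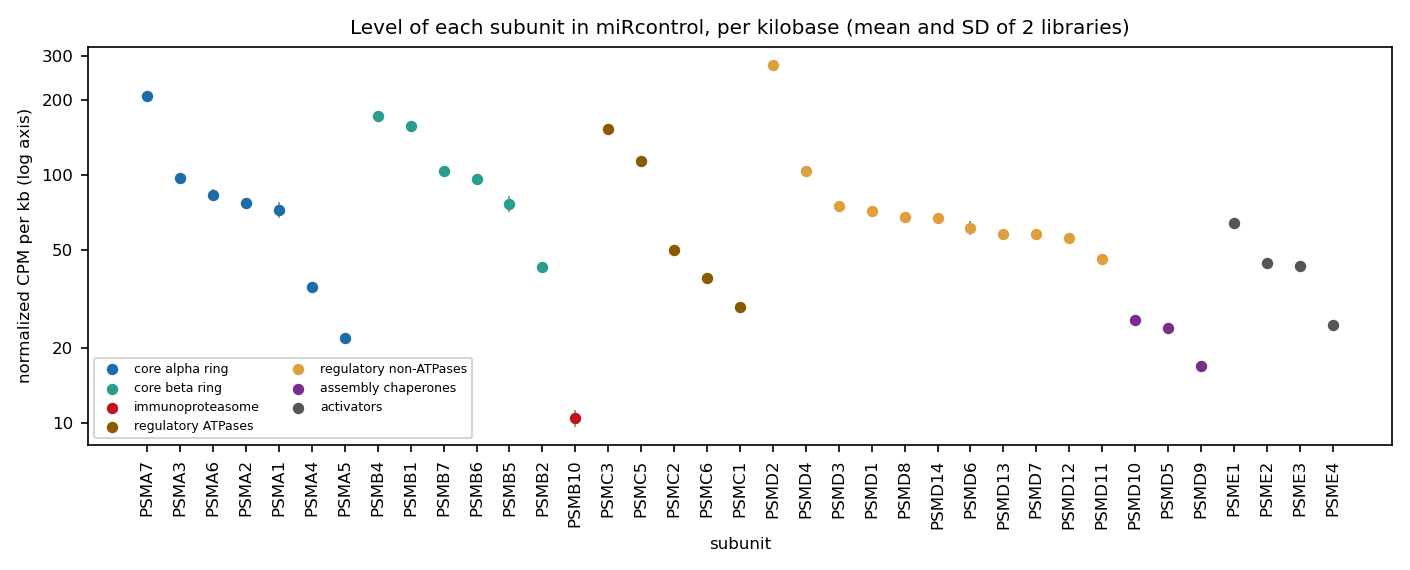
Level of each of the 37 tested subunits in miRcontrol, in normalized CPM per kilobase of exon on a log axis (points are means and bars the SD of 2 libraries), with subunits ordered by class and then by level. PSMD2 is highest at 276 and PSMB10 lowest at 10.5 CPM per kb.

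In the test across the 5 groups, all 37 subunits differed at an adjusted p under 0.05, as did 77.0% of all genes tested, so this count says little about the subunits in particular. The sizes were small: with the study's criterion of a fold change of at least 2 and an unadjusted p under 0.05, only PSMB5 passed, in the miR-200b-3p mimic, where 5.70% of all genes passed. No subunit passed that criterion in the miR-3124-5p mimic (8.81% of all genes), the miR-92b inhibitor (2.63%) or the mixture (5.42%). Nearest to the limit on either side were PSMB5 in the miR-200b-3p mimic, with a fold of 0.489, and PSMD6 in the miR-3124-5p mimic, with 0.524. Summed over the 37 subunits, normalized CPM were 6068 and 6040 in miRcontrol, 6197 and 6233 in the miR-3124-5p mimic and 6383 and 6190 in the miR-200b-3p mimic. The sum was 6646 and 6504 CPM in the miR-92b inhibitor and 6558 and 6526 in the mixture. Every library of the other groups thus lay above both miRcontrol libraries, by a ratio of means of 1.027 to 1.086.

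**Figure D2:**
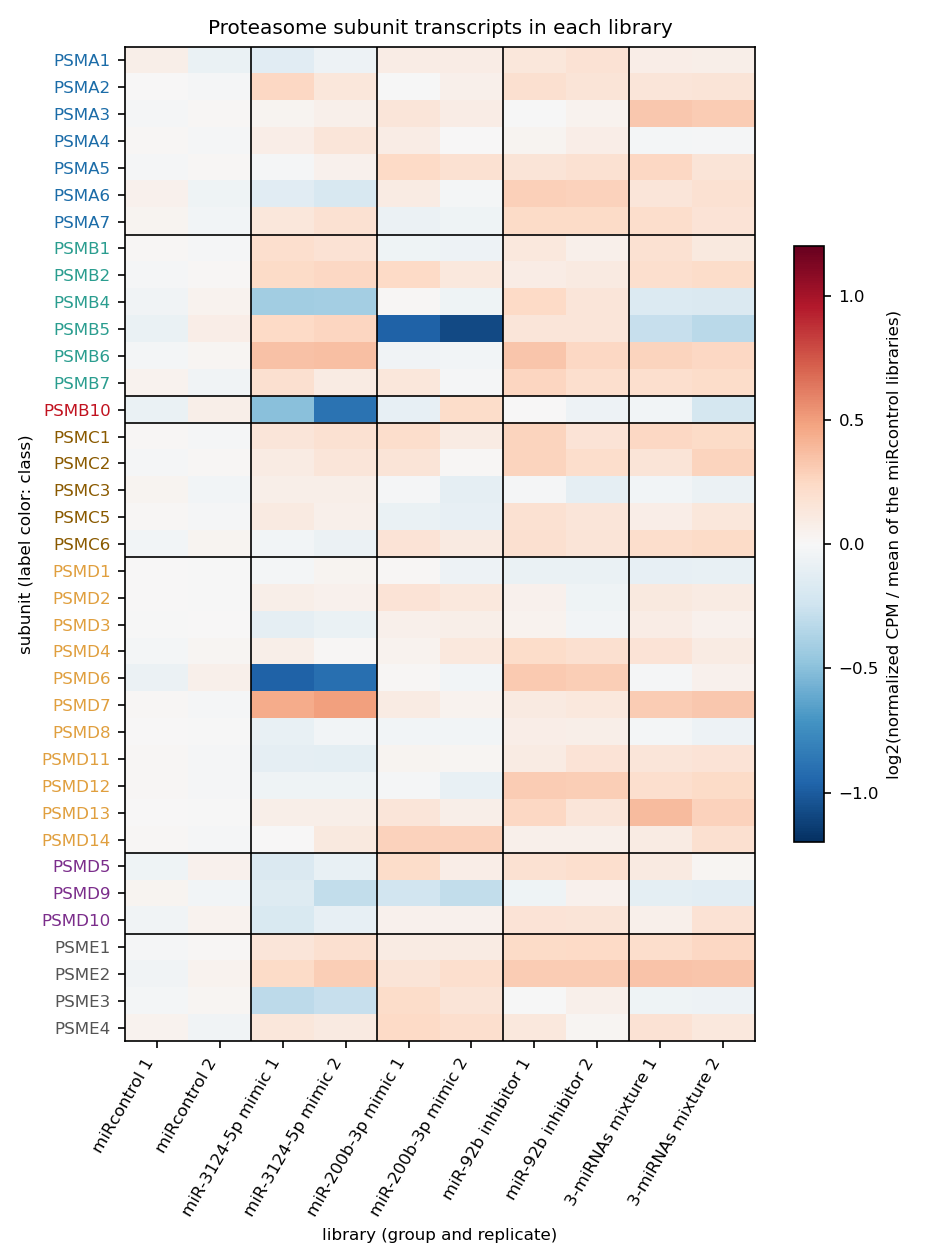
Each cell shows the log2 ratio of a subunit's normalized CPM in a library (columns, 2 per group) to the mean of the miRcontrol libraries, with red for higher and blue for lower and rows ordered by class. The deepest blue cells are PSMB5 in the miR-200b-3p mimic and PSMD6 in the miR-3124-5p mimic, while most cells of the miR-92b inhibitor and the mixture are pale red.

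The miR-200b-3p mimic was marked by the fall of a single catalytic subunit. PSMB5, which carries the chymotrypsin-like activity that proteasome inhibitor drugs bind, lies on chromosome 14 (GRCh38, chr14:23016543-23035230, minus strand). It had 106 and 118 CPM in miRcontrol and 56.9 and 52.8 CPM in the miR-200b-3p mimic. It had 92.3 and 89.2 CPM in the mixture, 132 and 133 in the miR-3124-5p mimic and 124 and 124 in the miR-92b inhibitor. Both mimic libraries were far below every other library, and both mixture libraries lay between them and the controls. The log2 fold change in the miR-200b-3p mimic was -1.03 ± 0.055 (SE), a change of -51.1% (edgeR adjusted p = 8.46e-21). Without the second miRcontrol library or the second miR-200b-3p mimic library, PSMB5 no longer reached a fold change of 2, and no subunit passed that criterion.

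The other catalytic subunits did not move with PSMB5. PSMB6, which carries the caspase-like activity, had 82.8 and 85.5 CPM in miRcontrol and 82.0 and 82.3 in the miR-200b-3p mimic. PSMB7, which carries the trypsin-like activity, had 105 and 99.1 CPM in miRcontrol and 112 and 101 in the mimic. Neither passed the test (adjusted p = 0.632 and 0.411). Per kilobase of exon, PSMB5 therefore made up 26.4% and 28.8% of the sum of the 3 catalytic subunits in miRcontrol but 15.7% and 15.4% in the miR-200b-3p mimic. The share was 21.1% and 20.5% in the mixture, 27.2% and 27.9% in the miR-3124-5p mimic and 25.5% and 26.5% in the miR-92b inhibitor. Only in the miR-200b-3p mimic and the mixture did both libraries lie below both controls.

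Of the 37 subunits, 11 were higher in the miR-200b-3p mimic than in miRcontrol, against 21.4% of all genes, and 2 were lower, against 19.1% of all genes. The median log2 fold change was 0.07 over the subunits and -0.01 over all genes. Most subunits are well expressed, and among the 5517 genes with a mean of at least 40 CPM, a limit set after the data were seen that holds 36 of the subunits, 32.4% were higher and 27.0% lower. The share of subunits that rose was thus not above that of genes of like level. PSMD14, the enzyme that removes ubiquitin chains from the substrate, rose from 132 and 130 CPM to 158 and 159 CPM (log2 fold change 0.28 ± 0.045, adjusted p = 1.38e-06). PSMA5 of the alpha ring rose by 0.21 ± 0.048 on the log2 scale (adjusted p = 0.00035). PSMD9, a chaperone, was the other subunit that fell, from 48.4 and 46.3 CPM to 40.4 and 38.7 CPM (-0.26 ± 0.068, adjusted p = 0.00141). PSMD9 shares 436 exon bases with WDR66 on the same strand, a gene with 119 to 239 counts against 540 to 893 for PSMD9, so reads there may be divided between them. By class, the calls were 2 of 7 alpha subunits, 2 of 6 beta subunits, 2 of 5 ATPases, 2 of 11 other regulatory subunits, 2 of 3 chaperones and 3 of 4 activators. PSMB2, PSMA3, PSMC1, PSMC6, PSMD2, PSMD5, PSME2, PSME3 and PSME4 were the other subunits that rose, by log2 fold changes between 0.12 and 0.22. Of the 13 calls in this group, 8 held under every alternative. The call of PSMA3 (adjusted p = 0.0478) was lost with DESeq2, edgeR's exact test, library totals, a fit of only these groups, either change of the count filter, and on leaving out any library of the 2 groups. PSMC6 and PSMD5 lost theirs with DESeq2 and without the first miRcontrol or first mimic library, and PSMC1 without the second miRcontrol or first mimic library. With edgeR's exact test 10 subunits were higher, and with DESeq2 8.

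**Figure D3:**
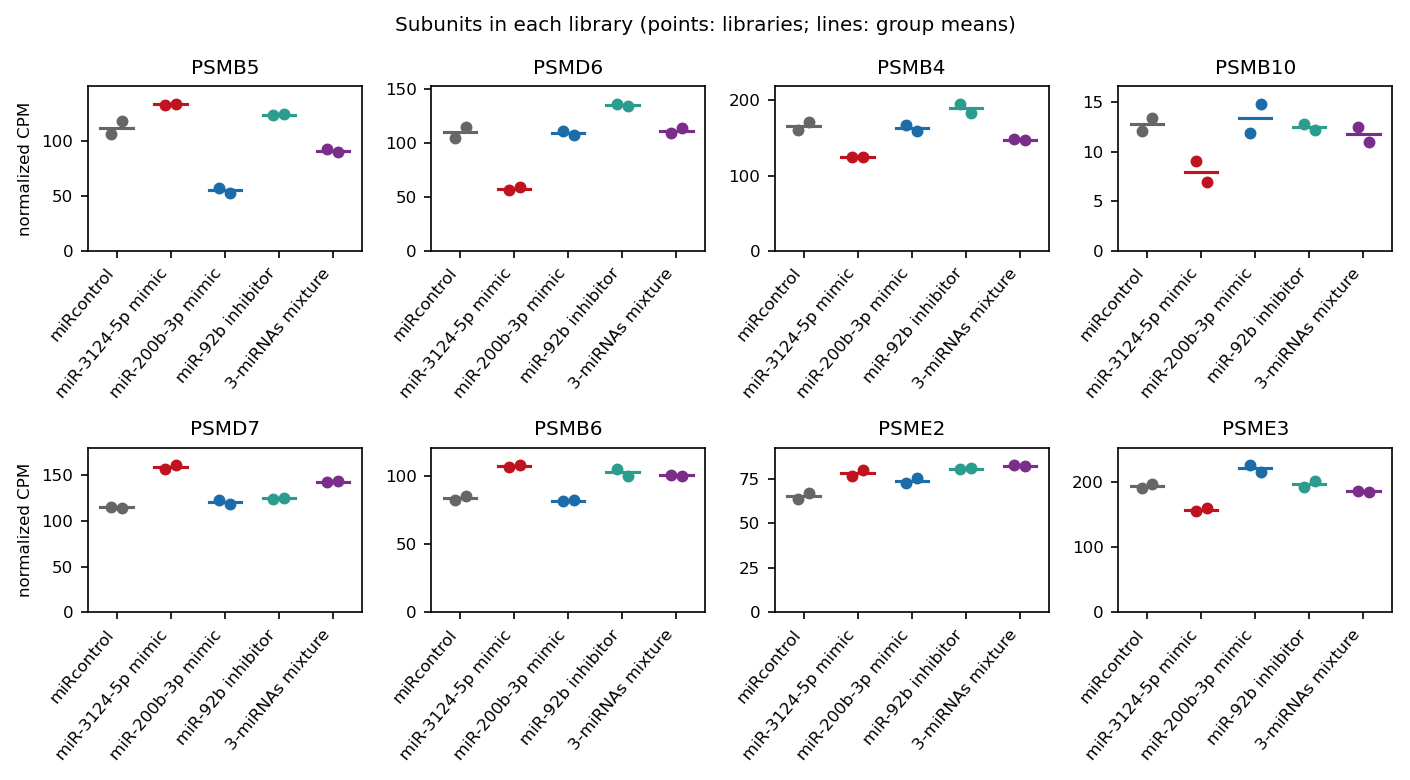
Normalized CPM (axes from 0) of 8 subunits in the 10 libraries, with points for libraries and lines for group means. PSMB5 is lowest in the miR-200b-3p mimic at 56.9 and 52.8 CPM, and PSMD6, PSMB4, PSMB10 and PSME3 are lowest in the miR-3124-5p mimic.

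The miR-3124-5p mimic moved subunits in both directions. Of the 37, 14 were higher than in miRcontrol, against 25.7% of all genes, and 8 were lower, against 25.3% of all genes. The median log2 fold change was 0.06 over the subunits and 0.00 over all genes, and single subunits ran from -0.93 to 0.47. Among the genes of at least 40 CPM, 31.6% were higher and 38.5% lower. PSMD6, a structural subunit of the lid of the regulatory particle (chr3:64010549-64024010, minus strand), fell from 105 and 115 CPM to 55.9 and 58.7 CPM. Both mimic libraries lay below every other library of the series, and the log2 fold change was -0.93 ± 0.053 (adjusted p = 5.38e-20). PSMB10, the trypsin-like subunit of the immunoproteasome (chr16:67934502-67937087, minus strand), fell from 12.1 and 13.4 CPM to 9.01 and 6.90 CPM. Its log2 fold change was -0.69 ± 0.136 (adjusted p = 2.81e-05). The level was low, 122 to 258 counts per library, so this estimate had the largest error of all subunits. PSMB10 also shares 374 of its 1218 exon bases with a same-strand gene, AC040162.1, that is not listed. PSMB4 (chr1:151399534-151401944, plus strand) fell from 161 and 171 CPM to 124 and 125 CPM (-0.41 ± 0.045, adjusted p = 6.77e-11).

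PSME3, the nuclear activator that forms a ring of its own, had 191 and 196 CPM in miRcontrol and 155 and 160 CPM in the miR-3124-5p mimic (-0.29 ± 0.042, adjusted p = 6.6e-08). The other subunits that fell were the chaperones PSMD9 and PSMD5, the alpha subunit PSMA6 and the lid subunit PSMD11, by log2 fold changes between -0.22 and -0.11. Each of these 4 calls was lost on leaving out at least 1 library. Those of PSMD5 and PSMD11 were also lost with library totals, and that of PSMD5 with DESeq2 and with either change of the count filter. Of the 22 calls in this group, 12 held under every alternative. In the opposite direction, PSMD7, the lid subunit that pairs with the deubiquitinase PSMD14, rose from 116 and 114 CPM to 157 and 161 CPM. Its log2 fold change of 0.47 ± 0.044 was the largest rise of a subunit in any of the 4 comparisons with miRcontrol (adjusted p = 7.08e-13). PSMD7 and PSMD6 thus moved apart within the same lid. PSMD7 shares 842 exon bases with an opposite-strand gene, AC009120.2, that has no row of its own in the files. PSMB6 rose from 82.8 and 85.5 CPM to 107 and 108 CPM (0.36 ± 0.048, adjusted p = 2.04e-08). PSMB5 and PSMB7 rose too, by 0.25 ± 0.048 and 0.14 ± 0.050, so that all 3 constitutive catalytic subunits were higher while PSMB10 was lower. The call of PSMB7 was lost without the second miRcontrol library (log2 fold change 0.10), without the first miR-3124-5p mimic library (0.09) and with DESeq2. The ratio of PSMB10 to PSMB7 per kilobase was 0.0929 and 0.109 in miRcontrol and 0.0624 and 0.0510 in the miR-3124-5p mimic. It was 0.0843 and 0.0840 in the miR-92b inhibitor and 0.0860 and 0.0743 in the mixture, below both controls but above both libraries of that mimic. In the miR-200b-3p mimic it was 0.0856 and 0.1185, on either side of the controls.

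To set these values beside the miRNAs themselves, the mature sequences were read from RefSeq (GRCh38.p14), with the seed, bases 2 to 8, in capitals. The search of the subunit transcripts for words that pair with the seeds was chosen after their values had been seen. Both strands of miR-92b are shown because the labels leave the strand open, and the 4 miRNAs share no seed.
miR-3124-5p: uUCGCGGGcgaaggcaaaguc
miR-200b-3p: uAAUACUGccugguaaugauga
miR-92b-5p: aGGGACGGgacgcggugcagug
miR-92b-3p: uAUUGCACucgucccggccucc

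In the longest coding transcript of each gene in GENCODE release 29 (sense strand, all of the transcript), the 7-letter word that pairs with the seed of miR-3124-5p, CCCGCGA, occurred in 2 of the 37 subunits, PSMB4 and PSMB10, and in 8.12% of 12297 tested transcripts. The 6-letter word CCGCGA, which pairs with bases 2 to 7 and lies within the longer word, occurred in PSMD2 and PSMD6 as well, and in 23.9% of all transcripts. These sites are shown because PSMD6, PSMB10 and PSMB4 had the 3 largest falls of all subunits in the miR-3124-5p mimic. The word is in capitals with 10 bases on each side.
PSMB10: gactcatccgCCCGCGAcccctaatcc
PSMB4: cagaccgaggCCCGCGActtagtagaa
PSMD6 (first site): gtccccttcgCCGCGAtgccgctgga
PSMD6 (second site): tggcggccgtCCGCGAtaacaacttt
PSMD2: aggaggggcgCCGCGAccgacgcgcg

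The PSMB10 site lies in the 5' untranslated part of exon 1 (chr16:67936777-67936783, minus strand), and the transcript holds a further 6-letter word in the coding part of exon 4. The PSMB4 site is coding sequence of exon 5 of 7 (chr1:151401291-151401297, plus strand). Both PSMD6 sites are in exon 1, the first in the 5' untranslated part (chr3:64023419-64023424) and the second in coding sequence (chr3:64023280-64023285), both on the minus strand. No such word of miR-3124-5p lay in the 3' untranslated region of a subunit, where most described miRNA sites are found. PSMD2, with its word in the 5' untranslated part (chr3:184299183-184299188, plus strand), did not pass the test in the miR-3124-5p mimic (log2 fold change 0.06 ± 0.034, adjusted p = 0.156). The median log2 fold change was -0.55 over the 4 subunits with the 6-letter word and 0.07 over the other 33. These 4 include PSMD6, PSMB10 and PSMB4, whose falls were the reason to show the sites. The same medians over all genes with and without the word were not computed. A match of letters is a description and does not show a working site, and no test was made of it.

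For miR-200b-3p, the 7-letter word CAGTATT occurred in PSMB4 and PSME4, and in 27.6% of all transcripts. Neither was lower in that mimic: PSMB4 had -0.02 ± 0.044 on the log2 scale and PSME4 rose by 0.22 ± 0.043. PSMB5, the subunit that fell most, held neither this word nor the 6-letter word AGTATT, which 10 subunits and 53.3% of all transcripts held. The word of miR-92b-5p, CCGTCCC, was in PSMD3, PSMD4, PSMD14 and PSME1 (14.1% of transcripts), and that of miR-92b-3p, GTGCAAT, in PSMC2, PSMD5, PSMD14 and PSME3 (18.8%). In the miR-92b inhibitor, the median log2 fold change was 0.13 over the 4 subunits with either word, and 0.16 over the other 33 in each case. With the 6-letter words the medians went opposite ways: 0.065 over 12 subunits with and 0.165 over 25 without that of miR-92b-5p, and 0.17 over 17 with and 0.14 over 20 without that of miR-92b-3p. For miR-200b-3p, the median in its mimic was 0.05 over the 10 subunits with the 6-letter word and 0.07 over the other 27.

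Many subunits had small rises in the miR-92b inhibitor. Of the 37, 23 were higher than in miRcontrol, against 17.5% of all genes, and 0 were lower, against 18.2% of all genes. DESeq2 and edgeR's exact test also called 0 lower, and at an unadjusted p under 0.05 edgeR's quasi-likelihood test gave 1. Below 0 were PSMD1 at -0.08 (adjusted p = 0.0987), PSMC3 at -0.06, PSMB10 at -0.03 and PSMD9, which was within rounding of 0. The median log2 fold change was 0.16 over the subunits and -0.01 over all genes, with 33 of 37 above 0. Among the genes of at least 40 CPM, 27.4% were higher and 28.1% lower. PSME2 rose from 63.5 and 67.3 CPM to 80.8 and 81.0 CPM (0.31 ± 0.053, adjusted p = 6.89e-06). PSMD6, which the miR-3124-5p mimic lowered, rose to 136 and 135 CPM in this group (0.30 ± 0.047, adjusted p = 1.05e-06). PSMD12, a further lid subunit, rose from 248 and 244 CPM to 303 and 301 CPM (0.30 ± 0.038, adjusted p = 1.47e-08). In all 3 subunits the libraries of the inhibitor lay above both controls, with less than 3 CPM between them.

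By class, 5 of 7 alpha subunits, 5 of 6 constitutive beta subunits, 4 of 5 ATPases, 6 of 11 other regulatory subunits, 1 of 3 chaperones and 2 of 4 activators were higher in the miR-92b inhibitor. PSMA6 of the alpha ring rose by 0.28 ± 0.046 and PSMB6 by 0.29 ± 0.048 on the log2 scale. PSMA6 shares 919 exon bases with a same-strand gene, AL121594.1, that is not listed. Among the ATPases, PSMC2 rose by 0.24 ± 0.045 and PSMC1 by 0.22 ± 0.045, while PSMC3 had -0.06 ± 0.041. PSMC1 shares 3654 exon bases with NRDE2 on the opposite strand, which had 278 to 414 counts against 2023 to 2840 for PSMC1. PSMC5, which rose by 0.17 ± 0.039, shares 332 exon bases with the opposite-strand gene FTSJ3, which had 1652 to 2461 counts. The strand setting of the counting is not given in the sources used here, so reads of such pairs cannot be told apart. PSMB5 was called in this group (0.14 ± 0.048, adjusted p = 0.0156), but the call was lost with DESeq2 and without the first miRcontrol library (0.07) or either library of the inhibitor (0.15 both times). PSMB2 and PSMD7 lost theirs with DESeq2, without the count filter and on leaving out any library of the 2 groups, and 16 of the 23 calls held under every alternative. Summed CPM of the alpha ring were 1103 and 1060 in miRcontrol and 1212 and 1222 in the inhibitor, a ratio of means of 1.125. The ratio was 1.118 for the beta ring, 1.093 for the ATPases, 1.059 for the other regulatory subunits and 1.081 for the activators.

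**Figure D4:**
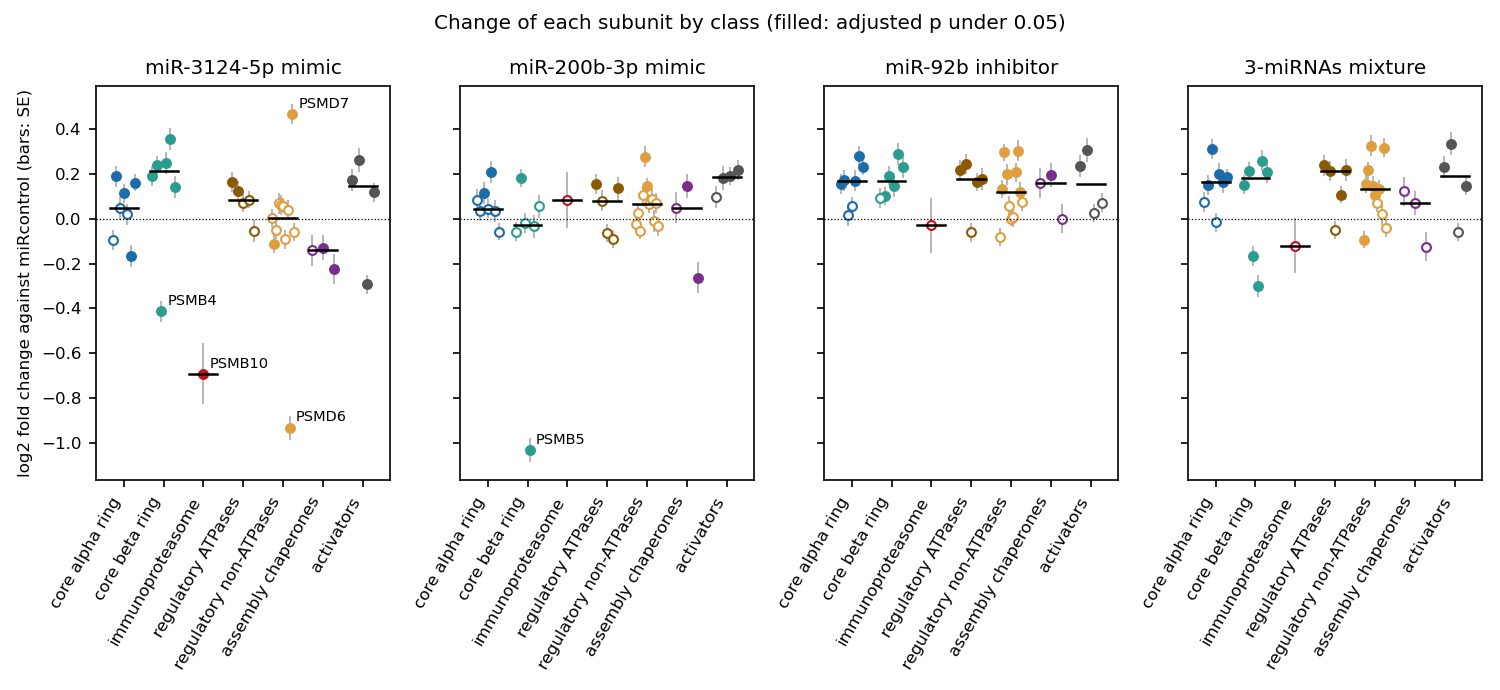
Log2 fold change of each tested subunit against miRcontrol (bars are the SE) in the other 4 groups, by class. Filled points are at an adjusted p under 0.05 and black lines at the class median. Most points of the miR-92b inhibitor and the mixture lie above 0, and the points below -0.4 are PSMD6, PSMB10 and PSMB4 in the miR-3124-5p mimic and PSMB5 in the miR-200b-3p mimic.

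In the mixture, 23 of the 37 subunits were higher than in miRcontrol, against 21.5% of all genes, and 3 were lower, against 21.1% of all genes. The median log2 fold change was 0.15 over the subunits and 0.00 over all genes. Among the genes of at least 40 CPM, 30.8% were higher and 30.4% lower. PSME2 rose to 82.8 and 82.3 CPM (0.34 ± 0.052, adjusted p = 6.21e-07). PSMD13, a lid subunit, rose from 123 and 122 CPM to 159 and 148 CPM (0.33 ± 0.046, adjusted p = 6.34e-08), and PSMD7 rose to 142 and 144 CPM (0.32 ± 0.043, adjusted p = 3.61e-08). PSMD13 shares 219 exon bases with SIRT3 on the opposite strand, which had at most 213 counts. PSMA3 of the alpha ring rose from 93.4 and 95.2 CPM to 118 and 116 CPM (0.31 ± 0.046, adjusted p = 2.21e-07). The subunits that fell were PSMB5 (-0.30 ± 0.050, adjusted p = 2.25e-06) and PSMB4, which went from 161 and 171 CPM to 148 and 147 CPM (-0.17 ± 0.044, adjusted p = 0.00159). PSMD1, the other large scaffold subunit, was called at -0.09 ± 0.039 (adjusted p = 0.0495), a call that was lost with TMM normalization, with library totals, without the filter on low counts, with DESeq2, and on leaving out any of the miRcontrol or mixture libraries. Without the second miRcontrol library PSMB4 did not pass either (-0.12), which left 1 subunit lower. Of the 26 calls in the mixture, 16 held under every alternative, and apart from PSMD1 the others were lost only on leaving out a library. By class, 5 of 7 alpha subunits, 4 of 6 beta subunits, 4 of 5 ATPases, 7 of 11 other regulatory subunits, 0 of 3 chaperones and 3 of 4 activators were higher.

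Comparing the mixture with each agent alone asks whether the mixture kept the change seen with that agent, and uses no control library. Against the miR-3124-5p mimic, 15 subunits were higher and 5 lower in the mixture (25.3% and 23.8% of all genes). PSMD6 was higher in the mixture by 0.95 ± 0.053 on the log2 scale (adjusted p = 3.07e-20) and lay at 109 and 114 CPM, within the range of the controls. Against miRcontrol it had a log2 fold change of 0.02 ± 0.048 (95% confidence interval -0.07 to 0.12, adjusted p = 0.755). PSMB10 was higher in the mixture than in that mimic by 0.57 ± 0.137, with 12.5 and 10.98 CPM, and PSMB4 by 0.25 ± 0.045. PSMD7 was lower in the mixture by 0.15 ± 0.042 (log2 fold change -0.15, adjusted p = 0.00256), so its rise was smaller there.

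Against the miR-200b-3p mimic, 16 subunits were higher and 3 lower in the mixture (18.2% and 20.4% of all genes). PSMB5 was 1.66 times as high in the mixture (log2 fold change 0.73 ± 0.056, adjusted p = 4.82e-15), while it stayed below miRcontrol. PSME3, PSMB4 and PSMD14 were the subunits that were lower, by log2 fold changes of -0.25, -0.14 and -0.13. Without the second mixture library, 9 subunits were higher. Against the miR-92b inhibitor, 5 subunits were higher and 6 lower (19.7% and 19.9% of all genes). PSMB5 (-0.45 ± 0.049), PSMB4 (-0.36 ± 0.043) and PSMD6 (-0.28 ± 0.047) were lower in the mixture, and these are the subunits with the largest falls in 1 of the mimics alone apart from PSMB10. PSMA3, PSMD7, PSMD13, PSMB2 and PSMD2 were higher by log2 fold changes of 0.10 to 0.30. Since the dose of each agent in the mixture is not known here, a smaller change in the mixture cannot be told apart from a smaller dose.

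Each comparison with miRcontrol uses the same 2 control libraries, so calls in several of them are not independent of each other. PSME2 had log2 fold changes of 0.26 in the miR-3124-5p mimic, 0.18 in the miR-200b-3p mimic, 0.31 in the miR-92b inhibitor and 0.34 in the mixture. PSMB2, a structural beta subunit, had 0.24, 0.18, 0.10 and 0.21 in the same order, and PSMC1 had 0.17, 0.16, 0.22 and 0.24. The calls of PSMB2 in the inhibitor and of PSMC1 in the miR-200b-3p mimic did not hold under every alternative, as given above. The call of PSME2 in the miR-200b-3p mimic was lost without the first miRcontrol library (0.14) or the second mimic library (0.16). At the other end, PSMC3, PSMD3, PSMD8 and PSMD10 passed the test against miRcontrol in no group, with log2 fold changes between -0.14 and 0.16. PSMD8 and PSMD3 are lid subunits, and PSMC3 is the ATPase with the highest level per kilobase.

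The activators differed among themselves. PSME1, the partner of PSME2, had 77.3 and 78.3 CPM in miRcontrol, 86.3 and 89.0 in the miR-3124-5p mimic, 83.1 and 83.3 in the miR-200b-3p mimic, 91.3 and 91.8 in the miR-92b inhibitor and 90.1 and 92.6 in the mixture. All libraries of the other groups lay above both controls, and 3 of those groups passed the test, with log2 fold changes of 0.17, 0.23 and 0.23. The miR-200b-3p mimic did not (0.10, adjusted p = 0.126), and the call in the miR-3124-5p mimic was lost without its second library (0.15). PSME3 was the activator with opposite calls: it fell in the miR-3124-5p mimic and rose to 226 and 216 CPM in the miR-200b-3p mimic (0.19 ± 0.041, adjusted p = 0.000148). PSME4 rose from 182 and 171 CPM to 208 and 203 CPM in the miR-200b-3p mimic. It was 194 and 190 CPM in the miR-3124-5p mimic, 192 and 179 in the miR-92b inhibitor and 199 and 192 in the mixture. The summed activators were 513 and 513 CPM in miRcontrol and 589 and 578 CPM in the miR-200b-3p mimic, the largest ratio of any class in that group (1.137), while the beta ring had 0.958.

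PSME1 and PSME2 lie near each other on chromosome 14. Their promoters are shown because the pair moved alike, with the core of the antioxidant response element in capitals (TGACNNNGC, searched on both strands). The core lies at different places, at -86 from the start of PSME1 and at -175 from that of PSME2. Apart from this core and the CCAAT box, no element was searched, so other stretches that the promoters share, such as interferon response elements, are not marked. Whether the core has a part in the change of the pair was not tested. NFE2L1 and NFE2L2, transcription factors of proteasome genes and of the antioxidant response, bind such elements together with small MAF proteins. The sequences come from RefSeq (GRCh38.p14) and run 300 bases across the start of each gene, PSME1 at chr14:24135944-24136243 on the plus strand and PSME2 at chr14:24146561-24146860 on the minus strand.
PSME1: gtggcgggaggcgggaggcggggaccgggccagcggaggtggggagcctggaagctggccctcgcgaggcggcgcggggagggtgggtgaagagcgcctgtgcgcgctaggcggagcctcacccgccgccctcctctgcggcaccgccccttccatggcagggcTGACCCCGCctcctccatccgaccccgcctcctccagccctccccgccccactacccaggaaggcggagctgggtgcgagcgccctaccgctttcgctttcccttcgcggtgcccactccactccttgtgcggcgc
PSME2: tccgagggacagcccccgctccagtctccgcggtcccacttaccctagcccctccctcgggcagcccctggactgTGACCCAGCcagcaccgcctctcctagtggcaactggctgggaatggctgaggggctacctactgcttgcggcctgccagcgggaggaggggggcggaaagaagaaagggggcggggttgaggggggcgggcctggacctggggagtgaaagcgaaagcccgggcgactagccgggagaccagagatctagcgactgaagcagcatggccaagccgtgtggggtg

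The core occurred in 8 of the 32 subunit promoters that were matched (25.0%) and in 13.6% of all 27305 promoters of this length. Among the 10434 promoters of tested genes, the share was 15.2%. In the miR-92b inhibitor, 4 of the 8 subunits with the core and 15 of the 24 without it were higher. In the mixture these counts were 4 of 8 and 14 of 24, in the miR-3124-5p mimic 3 of 8 and 7 of 24, and in the miR-200b-3p mimic 3 of 8 and 8 of 24. The share with the core was the lower in 2 groups and the higher in the other 2. The CCAAT box, searched on both strands, was in 15 of the 32 subunit promoters (46.9%), in 35.7% of all promoters and in 36.4% of those of tested genes.

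Other genes of the pathway were read from lists chosen for their roles, and their difference from the subunits was not tested. Over all genes, 25.7% were higher and 25.3% lower in the miR-3124-5p mimic, 21.4% and 19.1% in the miR-200b-3p mimic, 17.5% and 18.2% in the miR-92b inhibitor and 21.5% and 21.1% in the mixture, so list counts near these shares are not a result about the list. Of 13 tested partners and assembly factors, 2 were higher and 7 lower in the miR-3124-5p mimic. USP14, a deubiquitinase bound to the regulatory particle, fell by 0.70 on the log2 scale (log2 fold change -0.70, adjusted p = 2.05e-18) and UBE3C, a ubiquitin ligase at the proteasome, had -0.49. In the miR-200b-3p mimic, 3 of the 13 were higher and 1 lower, PAAF1, which binds the ATPases (-0.73, adjusted p = 4.5e-06). In the miR-92b inhibitor 4 were higher and 2 lower, and in the mixture 3 and 3. POMP, the chaperone of core assembly, rose by 0.34 in the miR-92b inhibitor and by 0.33 in the mixture (adjusted p = 7.31e-08 and 7.9e-08). PSMF1, an inhibitor of the core, rose by 0.36 in the miR-200b-3p mimic and in the mixture.

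Of 7 tested shuttle factors and segregase subunits, which bring ubiquitin-tagged proteins to the proteasome, 3 were higher and 4 lower in the miR-92b inhibitor. VCP, the segregase ATPase, fell there (-0.40, adjusted p = 6.24e-12). The counts were 1 and 4 in the miR-3124-5p mimic, 3 and 0 in the miR-200b-3p mimic and 2 and 5 in the mixture.

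Among 8 genes of the transcriptional control of the proteasome, 6 were higher and 2 lower in the miR-3124-5p mimic, 4 and 1 in the miR-200b-3p mimic, 3 and 3 in the miR-92b inhibitor and 4 and 3 in the mixture. BACH1, a repressor at antioxidant response elements, rose in all 4 groups, by 0.55, 0.83, 0.33 and 0.72 on the log2 scale in the same order. NFE2L1 itself was higher in the miR-3124-5p mimic (0.234, adjusted p = 3.75e-07). It was lower in the miR-200b-3p mimic (-0.134), the miR-92b inhibitor (-0.135) and the mixture (-0.109, adjusted p = 0.0135). NFE2L2 was higher in the miR-3124-5p mimic (0.373) and was not called in the other groups. NGLY1, the enzyme that removes sugars from NFE2L1 during its activation, fell in the miR-92b inhibitor (-0.66, adjusted p = 2.77e-09) and in the mixture (-0.47, adjusted p = 1.32e-06). MAFF, a small MAF protein, also rose in all 4 groups, by 0.54, 0.47, 0.64 and 0.82. In the heat shock list of 9 genes, 0 were higher and 6 lower in the miR-3124-5p mimic, 6 and 1 in the miR-200b-3p mimic, 0 and 2 in the miR-92b inhibitor and 2 and 5 in the mixture. The counts of 0 in these lists, in the interferon list that follows and for the chaperones in the mixture were also 0 with DESeq2, with edgeR's exact test and at an unadjusted p under 0.05. The exception was the heat shock list in the miR-92b inhibitor, where the exact test called 1 gene higher and the quasi-likelihood test had 1 higher at an unadjusted p under 0.05.

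Genes of the interferon response and antigen processing were higher in many cases, most often in the mixture and the miR-3124-5p mimic. Of 15 tested genes, 13 were higher and 1 lower in the miR-3124-5p mimic, 4 and 0 in the miR-200b-3p mimic, 8 and 0 in the miR-92b inhibitor and 14 and 0 in the mixture. IFI6, an interferon-induced gene, rose from 9.44 to 32.6 CPM in the miR-92b inhibitor (log2 fold change 1.79) and to 53.0 CPM in the mixture (2.49). MX1, an interferon-induced antiviral gene, rose by 1.35 in the miR-3124-5p mimic, by 1.19 in the miR-92b inhibitor and by 2.11 in the mixture. Its level was low, 17 to 155 counts per library. The gene that was lower in the miR-3124-5p mimic was TAPBP (log2 fold change -2.54, adjusted p = 1.24e-06). This was the largest change of the list in that mimic, but TAPBP had only 4 to 54 counts and is a repeated symbol. PSMB10, which interferon induces as well, was lower or not called in these groups. The part of these genes in the results of the activators was not tested.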

How the data were processed

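Messenger RNA of 10 BEAS2B libraries, 2 for each of 5 groups, was sequenced. The deposited files give unnormalized counts of reads for each gene, as whole numbers. The authors checked read quality with FastQC, trimmed reads with FASTX_Trimmer and BBMap and mapped them with TopHat, to GRCh38 per the labels. The counting tool, annotation and strand setting are not given in the sources used here. Counts of repeated symbols were summed. Genes passing filterByExpr (minimum count 10) were fitted with edgeR 4.0.16 in R 4.3.3 (RLE normalization, quasi-likelihood test, all libraries, no covariates), and p-values were adjusted by Benjamini-Hochberg over all 14884 genes tested. The procedure was tested on simulated data in which a far smaller share of genes changed than was called here. That test therefore does not cover the normalization or the error rate under changes this broad. Between the libraries of a group, chi-square per degree of freedom was 1.76 to 2.67, above counting error alone. The spread beyond counting error, as the common dispersion of the fit, was 0.000751. Neither value shows that the libraries came from separate transfections. The members, lists and alternatives were chosen with earlier results of these data known. Named with values were the catalytic subunits, the activators and the 3 largest rises and falls per comparison with miRcontrol. ECPAS and UFD1 were not listed under these symbols, and a list of ubiquitin genes is not reported here. PSMB5 in the mixture and further members were named after their values were seen. Figures were drawn with matplotlib 3.10.9.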

Additional observations from a re-analysis of the deposited data

How the results depend on the processing

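The alternatives were TMM normalization, library totals, no low-count filter, a minimum of 10 counts in each library, the largest row of repeated symbols, a fit of only the groups compared, edgeR's exact test, DESeq2 1.42.0, a replicate block and leaving out each library in turn. Of 875 values so obtained, 838 kept their direction and their side of the threshold, and 0 reversed. These values do not include every call of a single subunit against miRcontrol, and many such calls were lost on leaving out a library. Under the other alternatives, calls lost at least once were 5 of 22 in the miR-3124-5p mimic and 3 of 13 in the miR-200b-3p mimic. They were 3 of 23 in the miR-92b inhibitor and 1 of 26 in the mixture. DESeq2's likelihood ratio test across the 5 groups was added after the data were seen. Among the counts of subunits, only leaving out a library moved one by over 1.5 times. Left out 1 at a time, the libraries gave 5 to 8 subunits lower in the miR-3124-5p mimic (5 without the first miRcontrol library), 1 to 2 lower in the mixture (1 without the second miRcontrol library), and 0 to 1 past the fold change of 2 in the miR-3124-5p mimic (1 without the first miRcontrol library) and 0 to 1 in the miR-200b-3p mimic (0 without the second miRcontrol or second mimic library). For the mixture against the miR-3124-5p mimic, 1 to 5 were lower (1 without the second mimic library, 3 without either mixture library). Against the miR-200b-3p mimic, 9 to 14 were higher (9 without the second mixture library). Against the miR-92b inhibitor, 2 to 4 were higher (2 without the second inhibitor library, 3 without the first mixture library) and 3 to 5 lower (3 without either inhibitor library or the second mixture library). When a library is left out, the lone sample of its group is assumed to vary like the other groups. PSME4 lost its call in the miR-3124-5p mimic without the second miRcontrol library (0.07) or the first mimic library (0.10), and in the mixture without the second miRcontrol library (0.10) or the first mixture library (0.13).

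Replicate numbers did not pair the libraries, since the difference of 2 libraries in 1 group had a correlation of -0.04 to 0.04 with that in another group (14884 genes). With the replicate block the counts of subunits higher than miRcontrol were 14, 11, 23 and 23, as without it. A subunit with 3 counts or fewer in a library, 0.162 to 0.221 CPM, could not be told from 0.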
